A study of Canis lupus familiaris with 29 samples.

Results

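Gene expression in 7 tumors of pheochromocytoma and paraganglioma (PPGL) group 1 was compared with that in 10 normal adrenal medullas (NAMs) of dogs. The members were chosen by the group that names each column of the deposited count table, which gave 17 of the 29 samples, and the 12 tumors of PPGL group 2 were left out of the fit. The tumors are from pets, sampled in an operation or once the animal had been put down, whereas the NAMs are from healthy research dogs. The authors drew the PPGL groups from a principal component analysis of these same samples, after setting aside 2 tumors that lay apart, so the grouping itself rests on gene expression. Messenger RNA was read as stranded libraries with single ends of 50 bp. The labels give no genotype, strain, age or treatment for either group, and describe the cells as tumor cells that arose from chromaffin cells and as cells of healthy adrenal medulla. Since every tumor came from a patient and every NAM from a research dog, where the dogs came from and how tissue was taken cannot be told apart from tumor against normal tissue.

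Chromaffin cells of the adrenal medulla derive from the neural crest, make catecholamines from tyrosine and release them from dense-core vesicles together with granins and neuropeptides. The medulla is enclosed by the adrenal cortex, which makes steroid hormones, and cortical glucocorticoids reach the medulla and sustain the last enzyme of adrenaline synthesis. PPGLs are tumors of these cells, in the medulla or in paraganglia outside it, and in humans they are known for inherited variants in genes of hypoxia signaling, the tricarboxylic acid (TCA) cycle and kinase signaling.

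Total counts on genes ranged from 18493540 to 31919833 in the samples of group 1 (median 20825468) and from 19258054 to 35918182 in NAMs (median 25494016.5). The difference between mean totals gave p = 0.133 (two-sided exact permutation test), and without tumor 5, the deepest of group 1, the same exact test gave p = 0.0312. Mitochondrially encoded genes held 3.93 to 13.09% of the counts in group 1 and 4.60 to 13.97% in NAMs (exact permutation test, p = 0.315). Levels are given as CPM, counts scaled to the total of the sample, after normalization by TMM, a scaling that allows for a few genes that take many counts. CPM do not allow for gene length, so levels are compared between samples and not between genes, and the marker of a list with the highest CPM is named by CPM alone. A level of 3 counts was taken as the floor of detection, which is 0.0895 to 0.175 CPM in group 1 and 0.0777 to 0.163 CPM in NAMs, and covers counting error only. The log2 fold change (FC) of group 1 over NAM, its standard error (SE) and the p adjusted by the Benjamini-Hochberg method came from the quasi-likelihood test of edgeR, a model fitted across all genes. A gene is called higher or lower where its adjusted p was below 0.05. Tumors and NAMs are numbered as in the sample labels.

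The label of chromaffin-derived tumor was checked against TH, DBH, PNMT, CHGB and SLC18A1, markers of chromaffin cells. In tumors 1, 2, 4 and 6 TH was at 865 to 6724 CPM, against 1053 to 5954 CPM in NAMs, so that tumor 1 was under the range for TH. SLC18A1 was at 169.5 to 271 CPM in tumors 1, 4 and 6, below the 355 to 1794 CPM of NAMs. PNMT was below the 1597 to 4754 CPM of NAMs in every tumor but tumor 2, with 510.0 to 1534 CPM in tumors 1, 4 and 6. Tumors 3 and 5 departed from the label, with TH at 10.8 and 2.15 CPM. Their DBH, at 2570.5 and 2166 CPM, also lay below the 4939 to 17225 CPM of NAMs. Their CHGB, at 13142 and 6829 CPM, was within the range of NAMs, as was their SLC18A1, at 756 and 549 CPM. Tumor 7 departed in another way, with TH at 1386 CPM but CHGB at 27.2 CPM, against 5662 to 61529.5 CPM in NAMs. Its SLC18A1 was at 12.6 CPM. Of the 7 tumors, tumor 2 alone had none of these markers below the range of NAMs. Several lists and genes are therefore also given without tumors 3, 5 and 7. In bulk tissue, fewer cells of a type and less RNA per cell cannot be told apart.

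Across the table, 14587 genes were tested, and their median log2 FC was 0.13. Of these, 3071 genes (21.1%) were higher and 2147 (14.7%) lower in group 1, 5218 (35.8%) in all, and 6649 had an unadjusted p below 0.05. A log2 FC over 3 was reached by 261 of the genes called higher (1.79% of the genes tested), and none of these had all NAMs at the floor. A log2 FC under -3 was reached by 385 genes called lower (2.64%), of which 68 had all tumors at or under the floor, so that their fitted FC depends on the prior count. All tumors lay above every NAM in 321 genes (2.2%) and below every NAM in 625 (4.28%). Without tumors 3, 5 and 7, 2869 genes were higher and 2374 lower, and 3933 genes were called in both fits. The Mann-Whitney U-test on all samples called 1932 genes higher and 2234 lower, so which direction held more calls depended on the test. Tumor 7 held most of the summed CPM of group 1 in 81 of the 261 genes with a log2 FC over 3, and its median Spearman correlation with the other tumors, across genes, was the lowest at 0.803. Tumor 2 was the lone exception to the direction of the other tumors in 359 genes and tumor 4 in 117, the most and the fewest. The filter on low counts needs a gene in at least 7 samples, so a gene silent in NAMs and high in only some tumors was not tested. Among the 8482 genes with a count that failed it, 238 reached 5 CPM in a tumor, and 56 of those had all NAMs at or under the floor. Counts of list members stand beside the 21.1% higher and 14.7% lower of all genes, and shares near these are not read as results about a list. Members of 45 gene lists follow, and in 17 cases edgeR called 0 tested members of a list in a direction. In these cases 3 members passed an unadjusted p below 0.05, 3 were called by DESeq2 and 1 by the Mann-Whitney U-test. Where that test, on ranks, ended the call of a gene given in full, its adjusted p is given as the rank p.

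**Figure D1:**
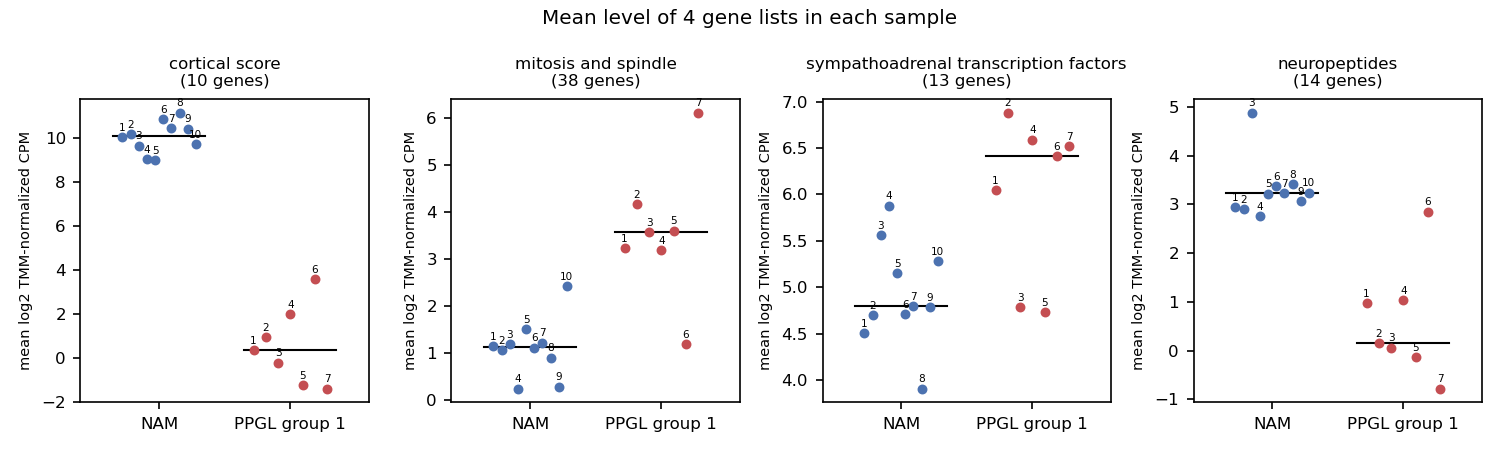
Mean log2 TMM-normalized CPM of 4 gene lists in each sample, with NAMs in blue, tumors of PPGL group 1 in red, sample numbers beside the points and lines at the medians. The cortical score of every tumor lies below that of every NAM, while tumor 6 lies among the NAMs for mitosis and tumor 7 above all other samples.

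The cells and secretory products that define the medulla come first. Catecholamine synthesis runs from tyrosine through L-DOPA, dopamine and noradrenaline to adrenaline, and vesicular transporters load the products into granules. Of 16 genes of catecholamine synthesis, storage and breakdown, 2 were called higher, against 21.1% of all genes, and 1 lower, against 14.7%, and their median log2 FC was 0.26. Leaving out tumor 2 gave a lower count of 3 and a median of -0.07. TH, tyrosine hydroxylase, which sets the rate of the pathway (chromosome 18, 46327137 to 46335602 in CanFam3.1), was at 2.15 to 6724 CPM (median 1386) in group 1 and at 1053 to 5954 CPM (median 1415) in NAMs. It was highest in tumor 6 and below every NAM in tumors 1, 3 and 5, and did not pass the test (log2 FC -0.07, SE 0.86, adjusted p 0.956; -0.81 without tumor 6). DBH, which turns dopamine into noradrenaline, was at 2166 to 29412 CPM (median 17197) in group 1 and 4939 to 17225 CPM (median 6616) in NAMs. Tumors 1, 4 and 6 exceeded every NAM and tumors 3 and 5 lay below them all (log2 FC 0.79, SE 0.47, adjusted p 0.207). Without tumors 3, 5 and 7 DBH was called higher, at a log2 FC of 1.44. Low DBH was part of why tumors 3 and 5 were set apart, so nothing is read from that call. PNMT, which methylates noradrenaline to adrenaline, was at 11.6 to 5831 CPM (median 510.0) in group 1 and 1597 to 4754 CPM (median 2334) in NAMs. All tumors but tumor 2 lay below every NAM, tumor 2 lay above them all, and edgeR did not call the gene (log2 FC -1.02, SE 0.84, adjusted p 0.364). It was called by the Mann-Whitney U-test (adjusted p 0.0476) and by the DESeq2 Wald test. Leaving out tumor 2 gave a log2 FC of -2.37 and a call.

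SLC18A1, the vesicular monoamine transporter of endocrine cells, was at 12.6 to 889 CPM (median 271) in group 1 and 355 to 1794 CPM (median 562) in NAMs. The ranges overlapped in 3 tumors, and the other 4 lay below every NAM (log2 FC -0.81, SE 0.55, adjusted p 0.263). SLC6A2, which takes noradrenaline back up, was at 1.19 to 836 CPM (median 64.6) in group 1 and 64.5 to 445 CPM (median 195) in NAMs. It split the tumors, with tumors 1 and 2 above every NAM and tumors 3, 4 and 5 below (log2 FC 0.46, SE 0.83, adjusted p 0.698; -0.07 without tumor 2). The genes called higher were CYB561, which supplies electrons to DBH (log2 FC 1.24), and PCBD1, which recycles the cofactor of TH (0.91, and 0.69 without tumor 6). PCBD1 kept its call in 8 of the 17 fits that left out 1 sample each, and lost it without tumor 3, 4 or 6 or NAM 1, 2, 6, 7, 8 or 9.

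Granins are acidic proteins that help to form dense-core granules, and prohormone convertases cut peptide precursors inside them. Of 10 genes of granins and prohormone processing found in the table, 1 was higher and 2 lower, with a median log2 FC of -0.40, and CHGA was not analysed here. CHGB, chromogranin B, was at 27.2 to 90898 CPM (median 13142) in group 1 and 5662 to 61529.5 CPM (median 21393) in NAMs. Tumors 4 and 6 exceeded every NAM and tumor 7 lay far below the rest (log2 FC 0.12, SE 0.79, adjusted p 0.923; -0.52 without tumor 4). SCG2, secretogranin II, was at 31.9 to 4268 CPM (median 611) in group 1 and 863 to 4004 CPM (median 1579.5) in NAMs. Tumor 6 was above and tumors 2, 3, 4 and 7 below every NAM (log2 FC -0.67, SE 0.69, adjusted p 0.478; -1.46 without tumor 6). PCSK1, a prohormone convertase, was at 2.39 to 668 CPM (median 141) in group 1 and 239 to 1409 CPM (median 338) in NAMs. In this gene 5 tumors lay below every NAM and none above (log2 FC -0.97, SE 0.69, adjusted p 0.29). SCG3, a granin that binds cholesterol-rich granule membranes, was called higher (log2 FC 1.82), but not without tumor 1 or tumor 4 (1.42 without tumor 4), while VGF, a neuroendocrine peptide precursor (-3.14), and CPE, a carboxypeptidase of peptide processing (-1.05), were called lower.

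Neuropeptides are stored in the same granules as catecholamines, and their levels differed widely between single tumors. Of 14 neuropeptide genes tested, 2 were higher and 4 lower, all 6 with a log2 FC beyond 3 in size, and the median was -0.90, or -1.79 without tumor 6. CARTPT encodes a peptide stored with catecholamines (chromosome 2, 54865298 to 54867158) and was at 0.179 to 278 CPM (median 0.640) in group 1 and 2066 to 4901 CPM (median 2965) in NAMs. It fell in all 7 tumors to below every NAM, by 47.7-fold between the means, but tumors 2, 4 and 6 kept 76.3 to 278 CPM where the others were under 1 (log2 FC -5.58, SE 1.31, adjusted p 0.00308; -6.63 without tumor 2). PENK, the precursor of enkephalins, was at 0.135 to 82898 CPM (median 19785) in group 1 and 5701 to 24894 CPM (median 7516) in NAMs. Tumors 3, 4, 5 and 6 held 19785 to 82898 CPM, whereas tumors 2 and 7 were at 0.330 and 0.135 CPM, and the gene was not called (log2 FC 1.13, SE 1.15, adjusted p 0.472; 0.18 without tumor 6). NPY, neuropeptide Y, was at 0 to 27.5 CPM (median 2.00) in group 1 and 4.62 to 20.2 CPM (median 6.83) in NAMs. Tumor 1 exceeded every NAM and the other 6 lay below them all (log2 FC -0.83, SE 0.89, adjusted p 0.497), and without tumor 1 the gene was called lower at a log2 FC of -2.55. OXT, oxytocin, was at 0 to 4.17 CPM (median 0) in group 1 and 0.130 to 16.1 CPM (median 5.76) in NAMs. It was at or near 0 in all tumors but tumor 7 (log2 FC -3.51, SE 1.24, adjusted p 0.0347), and without tumor 7 had a log2 FC of -9.21. The call of OXT held in 9 of the 17 fits that left out 1 sample each, and was lost without tumor 1, 3, 4, 5 or 6 or NAM 1, 7 or 9 (log2 FC -3.29 at the least). PDYN, the precursor of dynorphins (log2 FC 4.48), and GAL, galanin (3.66), were called higher, but 1 tumor carried each. Tumor 2 held 177 CPM of PDYN and no other tumor more than 3.04, and without tumor 2 it was not called (log2 FC 0.07). Tumor 5 held 130.4 CPM of GAL and no other tumor more than 9.98, and without tumor 5 it was not called (log2 FC 1.20). CRH, which stimulates the release of corticotropin, lay below every NAM in all 7 tumors (-3.85).

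**Figure D2:**
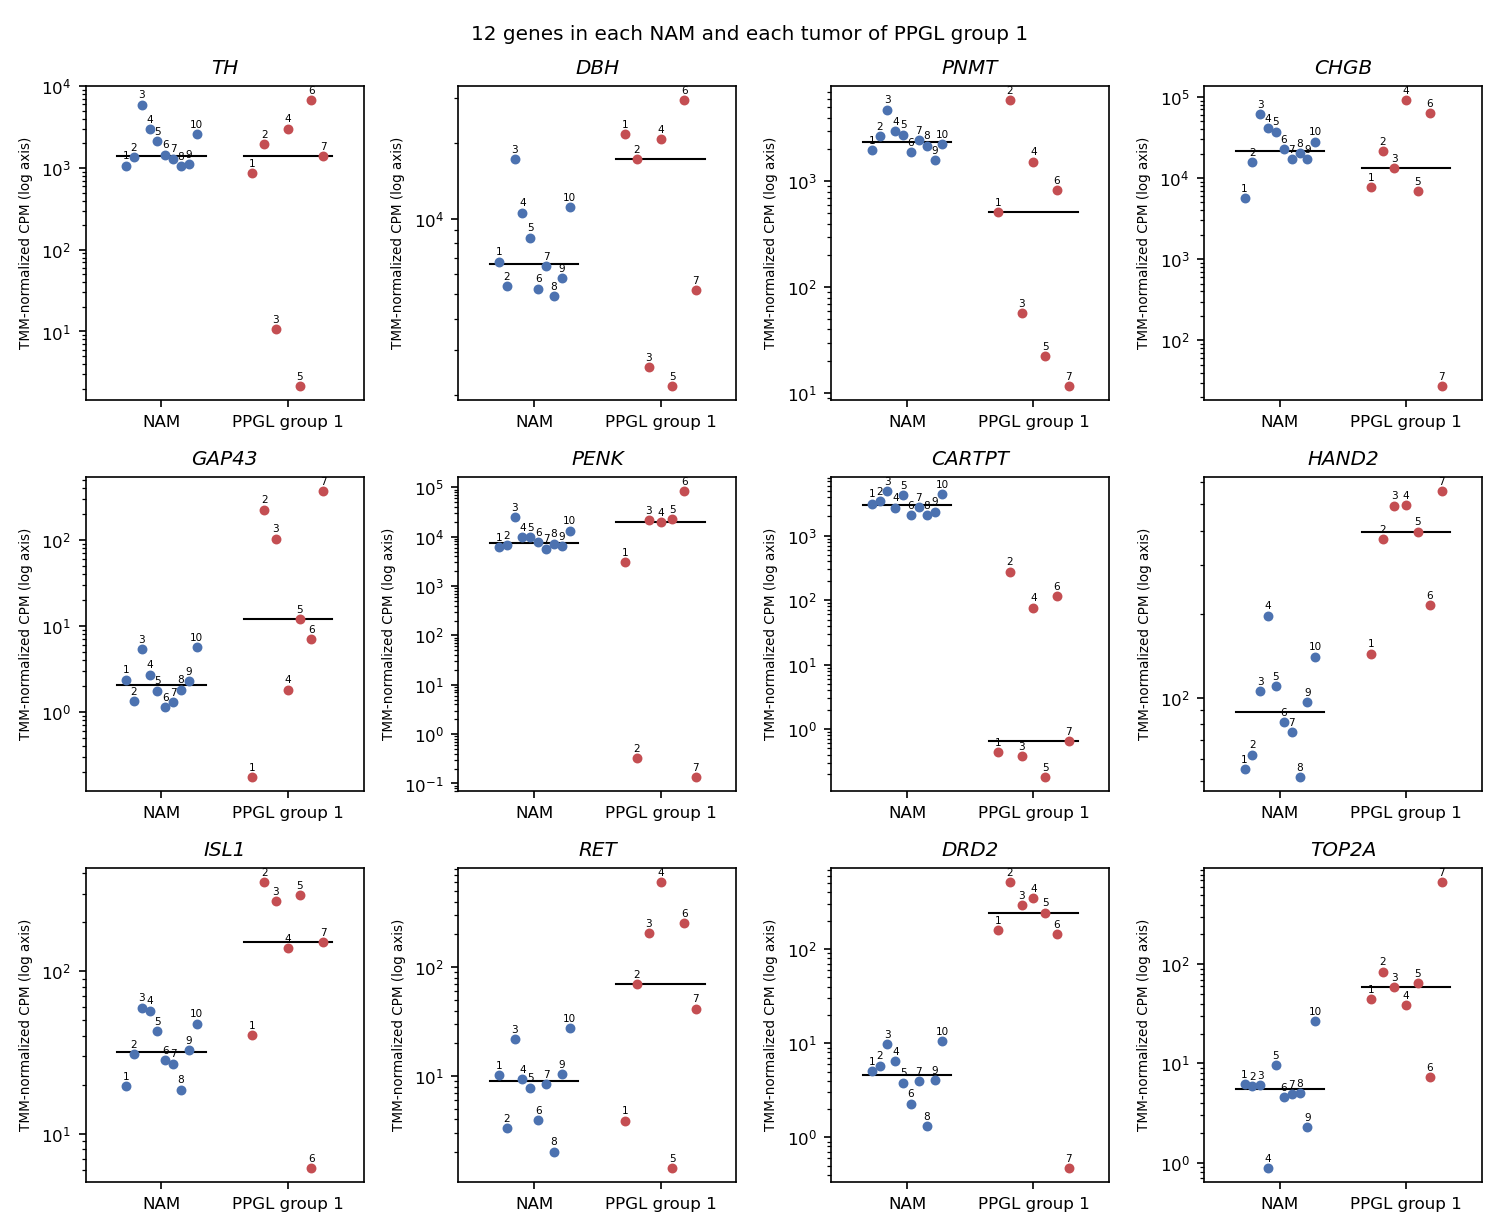
TMM-normalized CPM on a log axis of 12 genes in each NAM (blue) and each tumor of PPGL group 1 (red), with sample numbers beside the points and lines at the medians. Tumors 3 and 5 are lowest for TH, tumor 7 for CHGB and DRD2, and every tumor lies below every NAM for CARTPT.

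Sympathoadrenal identity is set by a circuit of transcription factors that is laid down in neural crest progenitors and partly kept in the adult medulla. Of 13 such factors tested, 9 (69.2%) were higher and 0 lower, where 21.1 and 14.7% of all genes were, and the median log2 FC was 1.97. Without tumors 3, 5 and 7, 11 were higher, with a median of 1.59. Those tumors were set apart by low chromaffin markers, so nothing is read from that change in the count. HAND2, a basic helix-loop-helix factor needed for noradrenergic cells, was at 144 to 554 CPM (median 397) in group 1 and 51.6 to 198 CPM (median 88.8) in NAMs. It rose in 6 tumors to above every NAM, and tumor 1 lay within their range (log2 FC 1.97, SE 0.30, adjusted p 8.54e-05). ISL1, a LIM homeobox factor of sympathetic neuroblasts, was at 6.14 to 353 CPM (median 150.3) in group 1 and 18.7 to 59.8 CPM (median 31.7) in NAMs. In 5 tumors it exceeded every NAM and in tumor 6 it lay below them all (log2 FC 2.30, SE 0.50, adjusted p 0.00181; rank p 0.112). GATA3, a zinc finger factor of the same circuit, was at 27.3 to 619.8 CPM (median 254) in group 1 and 33.9 to 184 CPM (median 102) in NAMs. Tumor 5 lay below every NAM and tumors 2, 4, 6 and 7 above (log2 FC 1.27, SE 0.47, adjusted p 0.0421; rank p 0.372), and the call held in 6 of the 17 fits that left out 1 sample each (log2 FC 0.88 to 1.47). It was lost without tumor 2, 4, 6 or 7 or NAM 1, 2, 3, 6, 7, 8 or 9.

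PHOX2A, a homeobox factor that takes part in the control of TH and DBH, lay above every NAM in all 7 tumors, tumors 3 and 5 included (log2 FC 2.13). The largest change of the list was that of HAND1 (3.72), a relative of HAND2, which lay above every NAM in tumors 2, 4, 6 and 7 and below them all in tumors 1, 3 and 5 (log2 FC 3.12 without tumor 2). SOX4, a factor of progenitors, was higher as well (log2 FC 2.46), most of it in tumor 7, at 55.4 CPM where the next highest, tumor 2, had 14.6. Without tumor 7 its log2 FC was 1.43.

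Proteins of the neuronal cytoskeleton and growth cone shape the processes that neuroblasts and chromaffin cells in culture put out. Of 21 tested, 12 (57.1%) were higher and 1 lower, with a median log2 FC of 1.04. GAP43, a growth cone protein, was at 0.176 to 365 CPM (median 12.0) in group 1 and 1.14 to 5.65 CPM (median 2.06) in NAMs. The tumors spanned more than the NAMs on both sides, with tumor 1 below every NAM and tumors 2, 3, 5, 6 and 7 above (log2 FC 5.30, SE 0.99, adjusted p 0.00054; 4.49 without tumor 7; rank p 0.162). ELAVL4, a neuronal RNA-binding protein, was at 1.31 to 97.2 CPM (median 73.2) in group 1 and 4.84 to 22.1 CPM (median 11.7) in NAMs. Only tumor 5 did not exceed the NAMs, and it lay below them (log2 FC 2.31, SE 0.52, adjusted p 0.00232). STMN2, a regulator of microtubules, was at 232 to 708 CPM (median 347) in group 1 and 144 to 333 CPM (median 225) in NAMs. Its ranges overlapped in tumors 5, 6 and 7 (log2 FC 0.83, SE 0.25, adjusted p 0.0147; rank p 0.0746). STMN1, a stathmin of dividing and growing cells, lay above every NAM in all 7 tumors (log2 FC 2.33), and NEFL, a neurofilament subunit, was the member called lower (-2.77, and -3.44 without tumor 6, where 2 members were lower).

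Among 23 proteins of vesicle docking and exocytosis, 6 (26.1%) were higher, near the 21.1% of all genes, and 0 lower, with a median of 0.43. SNAP25, a component of the fusion machinery, was at 42.5 to 502 CPM (median 124) in group 1 and 126 to 479.6 CPM (median 216) in NAMs. Tumor 6 lay above every NAM and tumors 1, 2, 5 and 7 below (log2 FC -0.22, SE 0.39, adjusted p 0.697). RPH3A, an effector of RAB3A, had the largest FC of the list (log2 FC 5.60), with 125 CPM in tumor 2 and at most 10.1 in the others, and 2.99 without tumor 2. SYN2, which tethers vesicles, was above every NAM in all 7 tumors (log2 FC 2.20).

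Ion channels set the action potentials and calcium entry that drive secretion. Of 24 potassium channel genes tested, 6 (25%) were higher and 7 (29.2%) lower, against 21.1 and 14.7% of all genes (median log2 FC 0.25). DPP6, an auxiliary subunit of A-type potassium channels, was at 4.11 to 598 CPM (median 262) in group 1 and 22.9 to 164 CPM (median 52.1) in NAMs. Tumors 1 to 5 exceeded every NAM and tumors 6 and 7 lay below them all (log2 FC 2.19, SE 0.66, adjusted p 0.0149; rank p 0.289), whereas PPGL group 2 against the same NAMs gave a log2 FC of -3.42. KCNK2, a background potassium channel, fell furthest, from 39.6 to 194 CPM (median 107) in NAMs to 0.0471 to 1.34 CPM (median 0.176) in group 1 (log2 FC -8.19, and -8.84 without tumor 6). Of 23 voltage-gated calcium and sodium channel genes tested, 8 (34.8%) were higher and 3 (13%) lower, and the median was 0.27, or -0.25 without tumor 7, -0.17 without tumor 2 and -0.06 without tumors 3, 5 and 7. The higher count was 5 without NAM 1, 6, 7, 8 or 9, and the lower count 6 without tumor 2 and 5 without tumor 5. CACNA1G, a T-type calcium channel (log2 FC 3.95), and CACNA2D2, an auxiliary calcium channel subunit (3.83), had the largest increases, with 5 and 6 tumors above every NAM, and CACNA2D2 had 2.95 without tumor 3.

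The genes with the largest differences were named by a rule, which took the 12 named genes per direction with the largest log2 FC among those called whose groups did not overlap and whose higher group had a median of at least 5 CPM. It chose from 269 genes called higher and 456 called lower. Under this rule all 7 tumors lie above every NAM, or below, by the way the genes were chosen. ST8SIA2, which adds polysialic acid to the adhesion molecule NCAM1 (chromosome 3, 47588797 to 47655593), was at 1.29 to 132 CPM (median 57.6) in group 1 and 0.0690 to 0.746 CPM (median 0.261) in NAMs (log2 FC 7.63, SE 0.75, adjusted p 1.16e-06). Tumors 4 and 6 were far lower than the other 5, though still above every NAM. SEZ6, a membrane protein of neurons (chromosome 9, 43121017 to 43165762), was at 55.9 to 702 CPM (median 316) in group 1 and 2.03 to 15.5 CPM (median 5.74) in NAMs (log2 FC 5.56, SE 0.54, adjusted p 1.15e-06). No tumor had less than 55.9 CPM, and the highest NAM had 15.5. SULF2, which trims heparan sulfate outside the cell, was at 116 to 1528 CPM (median 619.6) in group 1 and 12.9 to 46.1 CPM (median 28.9) in NAMs (log2 FC 4.55, SE 0.45, adjusted p 1.16e-06). Its lowest level was in tumor 7.

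APBA2, an adaptor that binds the amyloid precursor protein, was at 0.666 to 43.6 CPM (median 5.84) in group 1 and 0 to 0.556 CPM (median 0.334) in NAMs (log2 FC 5.44, SE 0.77, adjusted p 4.88e-05). The lowest tumor, number 4, was little above the highest NAM. CDCP1, a membrane substrate of Src kinases, was at 2.50 to 68.3 CPM (median 19.0) in group 1 and 0.228 to 1.69 CPM (median 0.452) in NAMs (log2 FC 5.29, SE 0.56, adjusted p 2.45e-06). SYTL1, an effector of the vesicle protein RAB27A, was at 3.60 to 79.7 CPM (median 21.8) in group 1 and 0.333 to 2.34 CPM (median 0.946) in NAMs (log2 FC 4.49, SE 0.59, adjusted p 2.12e-05; 3.88 without tumor 5). Both genes were highest in tumor 5. The other genes that the rule named as higher and that are reported here, PTN, POSTN, NKD1, WNT3 and ESM1, appear with their pathways. PPGL group 2 was fitted against the same NAMs, which the comparisons therefore share, and the difference between the groups was not tested here. In that fit the log2 FC was 5.83 for ST8SIA2, 5.71 for SEZ6, 3.13 for SULF2 and 1.05 for PTN, the last with an adjusted p of 0.0837.

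**Figure D3:**
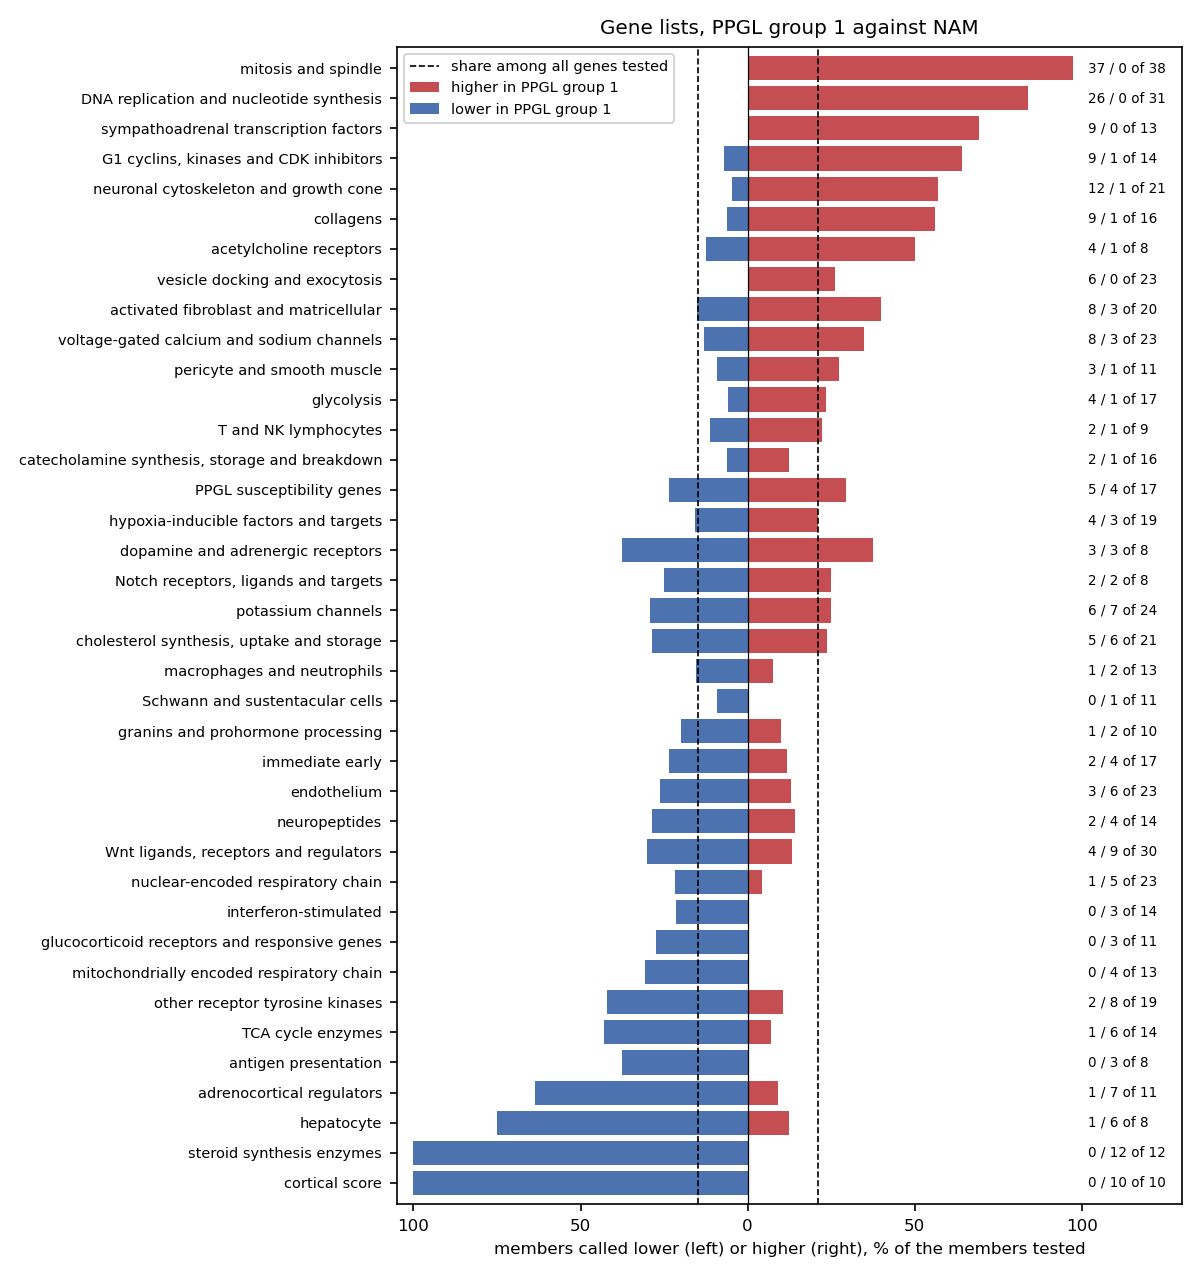
Share of the tested members called higher (red, right) and lower (blue, left) in PPGL group 1 for the 38 lists with at least 8 members tested, as % of the members tested, with the counts (higher / lower of tested) at the right edge. Dashed lines mark the shares among all genes tested, 21.1 and 14.7%, and steroid enzymes and mitosis lie at opposite ends of the lists.

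The adrenal cortex takes up cholesterol and turns it into steroids through a chain of mitochondrial and microsomal enzymes under the control of corticotropin. The study labels its normal samples as medulla, but every NAM also held 13916 CPM or more of cortical markers, so the NAMs departed from a label of medulla alone. The paper holds that cortical cells next to the medulla, present in the NAM samples, can explain their higher steroid genes. It also raises sampling of a tumor thrombus as a possible reason for less cortex in group 1 than in group 2. Neither was tested here. All 10 genes of a cortical score that were tested were lower in group 1, and in each all tumors lay below every NAM (4.28% of all genes did), with a median log2 FC of -9.23, or -10.44 without tumor 6. The score, the mean log2 CPM of these genes, was 0.58 ± 1.78 (SD, n = 7) in group 1 and 10.05 ± 0.71 (SD, n = 10) in NAMs. The highest tumor, number 6, reached 3.59 and the lowest NAM 8.99. Summed over the list, cortical markers held 23.5 CPM (tumor 7) to 1142 CPM (tumor 1) in group 1 and 13916 to 65618 CPM in NAMs, where CYP17A1 had the highest CPM. In tumor 1 almost all of that sum was STAR, at 1134 CPM. The score differs widely between the groups, and the part of cortical RNA in the results of other genes was not tested. A fit with the score as a covariate called only 126 genes, with 37 of them among the 5218 called without it and 2524 at an unadjusted p below 0.05.

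Of 12 steroid synthesis enzymes tested, 12 were lower, 11 of them with every tumor below every NAM, and the median was -7.30. CYP11A1, which starts steroid synthesis by cleaving the cholesterol side chain, was at 0 to 34.5 CPM (median 0.615) in group 1 and 2402 to 10588 CPM (median 6201) in NAMs (log2 FC -9.75, SE 1.46, adjusted p 8.11e-05). CYP17A1, which directs precursors to cortisol and androgens (chromosome 28, 15293106 to 15298852), was at 0.0337 to 105 CPM (median 1.89) in group 1 and 3044 to 20293 CPM (median 12255) in NAMs (log2 FC -9.06, SE 1.42, adjusted p 0.000124). Tumors 4 and 6 held the most of both genes, and tumor 7 the least or none. CYP21A2, the 21-hydroxylase of cortisol and aldosterone synthesis, was at 1.45 to 32.3 CPM (median 2.62) in group 1 and 2257 to 10283 CPM (median 4902) in NAMs (log2 FC -9.40, SE 0.82, adjusted p 3.72e-07). CYP11B2, which the annotation names for aldosterone synthesis, was at 0 to 19.3 CPM (median 0.395) in group 1 and 1290.2 to 3736 CPM (median 2262) in NAMs (log2 FC -9.51, SE 1.38, adjusted p 5.96e-05). Without tumor 6 the log2 FC was -11.29 for CYP11A1, -10.44 for CYP17A1, -10.44 for CYP21A2 and -12.27 for CYP11B2. CYP11B1, a paralog of CYP11B2, was not analysed here, and how reads shared by paralogs were counted is not stated, so CYP11B2 may hold reads of both. STAR, which carries cholesterol into mitochondria, was at 16.96 to 1134 CPM (median 123) in group 1 and 2743 to 12868 CPM (median 6234) in NAMs (log2 FC -4.26, SE 0.78, adjusted p 0.000458; -4.96 without tumor 1). Tumors 1 and 2 kept 1134 and 846 CPM of STAR while CYP11A1 was at 0.615 and 2.50 CPM in them. HSD17B4, an enzyme of peroxisomal fat breakdown as well, moved least (-0.72).

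Of 11 adrenocortical regulators, 7 were lower and 1 higher, with a median of -5.08, which stays the same with NR0B1, at the floor in all tumors, set to its bound, and 2 were higher without tumor 3. NR0B1, counted among the 7, passed the filter on low counts only through the NAMs, so nothing is read from its call. MC2R, the corticotropin receptor, was at 0 to 0.526 CPM (median 0) in group 1 and 28.7 to 104 CPM (median 61.0) in NAMs (log2 FC -9.58, SE 0.73, adjusted p 1.09e-07). MRAP, which brings that receptor to the cell surface, was at 0 to 1.64 CPM (median 0) in group 1 and 55.1 to 361 CPM (median 140.0) in NAMs (log2 FC -9.45, SE 1.00, adjusted p 2.43e-06). Both were at 0 in 4 tumors and highest in tumor 6, without which the log2 FC was -11.30 for MC2R and -11.54 for MRAP. NR5A1, the nuclear receptor that specifies steroidogenic cells, was at 0.0298 to 5.30 CPM (median 1.38) in group 1 and 122 to 699.7 CPM (median 375) in NAMs (log2 FC -7.82, SE 0.82, adjusted p 2.24e-06; -8.52 without tumor 3). INHA, the inhibin alpha chain, was at 1.51 to 5.79 CPM (median 1.87) in group 1 and 30.7 to 271 CPM (median 73.6) in NAMs (log2 FC -5.08, SE 0.53, adjusted p 1.99e-06). NR5A1 was highest in tumor 3 and INHA in tumor 5, tumors with little of the enzymes.

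Cholesterol reaches steroid-making cells by uptake of lipoproteins and by synthesis. Of 21 genes of cholesterol synthesis, uptake and storage, 5 were higher and 6 lower (median -0.25). SQLE, an early enzyme of the synthesis pathway, was higher (log2 FC 1.71), with tumors 3, 4, 5 and 6 above every NAM. NSDHL, which acts later in that pathway, lay above every NAM in all 7 tumors (log2 FC 0.92). SOAT1, which esterifies cholesterol for storage, went the other way (log2 FC -4.74).

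Glucocorticoid receptors carry the cortical signal into medullary cells. Of 11 genes of these receptors and their responsive genes, 0 were higher and 3 lower, namely SGK1 (log2 FC -2.57), PER1 (-1.75) and TSC22D3 (-1.73), with a median of -0.63, and 1 was higher without tumor 7. FKBP5, a receptor co-chaperone induced by glucocorticoids, was at 71.4 to 381 CPM (median 219.9) in group 1 and 150.4 to 498 CPM (median 232) in NAMs. The ranges overlapped, with 3 tumors below every NAM (log2 FC -0.23, SE 0.32, adjusted p 0.606).

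The other genes that the rule named as lower belong to different pathways. FGG, the fibrinogen gamma chain, was at 0 to 0.117 CPM (median 0) in group 1 and 0.445 to 517 CPM (median 23.5) in NAMs, a wide range between animals. All tumors were at or under the floor, so its mean was at least 933.5-fold lower (log2 FC -12.04, SE 1.85, adjusted p 0.000104; -12.73 without tumor 6 and -11.40 without NAM 8). MYPN, a protein of the sarcomere, was at 0 in all tumors and at 2.63 to 8.30 CPM (median 5.16) in NAMs, at least 38.8-fold lower (log2 FC -10.00, SE 0.62, adjusted p 4.58e-07). FAM237B was at 0 to 0.0942 CPM (median 0) in group 1 and 7.54 to 42.5 CPM (median 17.5) in NAMs, at least 154.9-fold lower (log2 FC -9.42, SE 0.70, adjusted p 9.14e-08; -10.06 without tumor 2). FGG, MYPN and FAM237B passed the filter on low counts only through the NAMs. Nothing is read from their calls beyond levels at or under the floor in every tumor. HAO2, a peroxisomal oxidase of hydroxy acids, was at 0 to 0.877 CPM (median 0.0439) in group 1 and 4.30 to 179 CPM (median 48.3) in NAMs (log2 FC -9.13, SE 1.05, adjusted p 6.07e-06; -10.79 without tumor 6). ZFP92, a zinc finger protein, was at 0 to 0.791 CPM (median 0.133) in group 1 and 17.5 to 194 CPM (median 114) in NAMs (log2 FC -8.86, SE 0.85, adjusted p 9.39e-07; -9.57 without tumor 1). ENPP2, the secreted enzyme autotaxin, which makes lysophosphatidic acid, was at 1.82 to 18.0 CPM (median 6.02) in group 1 and 576 to 7833 CPM (median 3843) in NAMs (log2 FC -8.72, SE 0.67, adjusted p 1.14e-07). Of these genes ENPP2 was the one detected in every tumor.

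FGG is also a liver gene, and other markers of hepatocytes are given beside it. Of 13 found, 8 passed the filter on low counts, with 6 lower and 1 higher. FGG, itself chosen for its fall, is among the 6, and FGG and APOH, at or under the floor in all tumors, passed only through the NAMs, so nothing is read from these counts. The summed level was 22.0 to 64.9 CPM in group 1 and 186.0 to 1183 CPM in NAMs, where APOB had the highest CPM. TTR, FGA, FGB and APOA2 were at or under the floor in all NAMs, and ALB was not analysed here. Whether liver RNA had a part in these differences was not tested.

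Cell division is rare in the adult medulla, and genes of the mitotic spindle and of DNA replication are made mainly by cycling cells. Of 38 mitosis and spindle genes tested, 37 (97.4%) were higher and 0 lower, with a median log2 FC of 3.28. Without tumor 7 the count was 35 and the median 2.33, and without tumors 3, 5 and 7 they were 34 and 2.25. Summed over the list, the level was 136 CPM in tumor 6, 448 to 836 CPM in tumors 1 to 5 and 3783 CPM in tumor 7, against 74.6 to 258.6 CPM in NAMs. Tumor 6 therefore lay within the range of NAMs. TOP2A, a topoisomerase that untangles chromosomes (chromosome 9, 22207638 to 22237496), was at 7.30 to 669.9 CPM (median 59.2) in group 1 and 0.880 to 26.7 CPM (median 5.47) in NAMs. All tumors but tumor 6 exceeded every NAM (log2 FC 4.26, SE 0.77, adjusted p 0.000392), and the log2 FC was 2.79 without tumor 7. MKI67, the proliferation marker Ki-67, was at 4.56 to 291 CPM (median 25.0) in group 1 and 1.02 to 16.1 CPM (median 4.25) in NAMs. Tumors 1 and 6 lay within the range of NAMs, whose highest, NAM 10, had 16.1 CPM (log2 FC 3.73, SE 0.74, adjusted p 0.000873), and without tumor 7 the log2 FC was 2.34. CDK1, the kinase that starts mitosis, was at 6.14 to 40.3 CPM (median 17.9) in group 1 and 1.37 to 14.9 CPM (median 4.52) in NAMs. Tumors 5 and 6 overlapped the NAMs (log2 FC 1.66, SE 0.47, adjusted p 0.0102), and without tumors 3, 5 and 7 it was not called (log2 FC 1.39).

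Of 31 genes of DNA replication and nucleotide synthesis tested, 26 (83.9%) were higher and 0 lower, with a median of 1.93, and without tumor 7 they were 22 and 1.27. MCM2, a subunit of the replicative helicase, was at 22.9 to 179 CPM (median 39.4) in group 1 and 5.52 to 20.7 CPM (median 8.71) in NAMs. It rose above every NAM in all 7 tumors (log2 FC 2.64, SE 0.37, adjusted p 4.69e-05). RRM2, which supplies deoxynucleotides, was at 3.27 to 375 CPM (median 27.4) in group 1 and 2.07 to 15.2 CPM (median 5.69) in NAMs. Tumors 1 and 6 overlapped the NAMs (log2 FC 3.52, SE 0.73, adjusted p 0.00127), and without tumor 7 the log2 FC was 1.74. It was not called without tumors 3, 5 and 7 (log2 FC 1.31). The cyclins and kinases that lead into replication, with their inhibitors, gave 9 higher and 1 lower, or 2 lower without tumor 3, of 14 tested (median 0.88). CCNE2, a cyclin of the entry into replication, exceeded every NAM in all 7 tumors (log2 FC 2.87). CCND2, a D-type cyclin, went the other way, from 61.5 to 116 CPM (median 76.6) in NAMs to 0.395 to 5.25 CPM (median 3.20) in group 1 (log2 FC -4.67).

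Stroma, vessels and glia surround the endocrine cells. Fibroblasts lay down collagens and matricellular proteins. Of 16 collagen genes, 9 (56.2%) were higher and 1 lower, with a median of 0.94. The lower gene, COL12A1, lost its call without tumor 1, 2 or 6 or any NAM but 3 and 4 (log2 FC -1.03 to -0.82), and without tumors 3, 5 and 7 the counts were 3 and 1 and the median 0.45. COL1A1, a chain of fibrillar collagen, was at 21.2 to 858 CPM (median 125) in group 1 and 30.4 to 124 CPM (median 52.9) in NAMs. Tumors 3 and 7 held 547 and 858 CPM and tumor 1 lay below every NAM (log2 FC 2.15, SE 0.53, adjusted p 0.00467; rank p 0.0916), with a log2 FC of 1.48 without tumor 7 and no call without tumors 3, 5 and 7 (log2 FC 0.43). COL4A1, a chain of basement membrane collagen, was at 241 to 1077 CPM (median 582) in group 1 and 118 to 305 CPM (median 153) in NAMs. It rose in all tumors but 1 and 6 to above every NAM (log2 FC 1.79, SE 0.28, adjusted p 0.000134).

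Of 20 genes of activated fibroblasts and the matricellular space, 8 (40%) were higher and 3 (15%) lower, against 21.1 and 14.7% of all genes (median 0.59, or 0.03 without tumor 7). Without tumors 3, 5 and 7 the counts were 4 and 4 and the median -0.33. POSTN, periostin, a matrix protein of remodeling tissue (chromosome 25, 3167359 to 3208411), was at 2.94 to 36.2 CPM (median 7.93) in group 1 and 0 to 0.418 CPM (median 0.196) in NAMs. It lay above every NAM in all 7 tumors and was highest in tumors 3 and 7 (log2 FC 6.08, SE 0.62, adjusted p 1.61e-06). FAP, a surface protease of activated fibroblasts, was at 0.791 to 13.8 CPM (median 1.81) in group 1 and 0.0508 to 1.71 CPM (median 0.446) in NAMs. Tumors 3 and 7 held 13.8 and 11.4 CPM, and tumors 1, 2 and 5 overlapped the NAMs (log2 FC 3.00, SE 0.70, adjusted p 0.00293). SFRP2, a secreted Wnt modulator of fibroblasts, was at 0.0439 to 115 CPM (median 2.00) in group 1 and 0 to 1.06 CPM (median 0.360) in NAMs. Tumors 3 and 7 held most of it (log2 FC 5.59, SE 1.23, adjusted p 0.00196; 3.93 without tumor 3; rank p 0.467), and without tumors 3, 5 and 7 neither FAP nor SFRP2 was called (log2 FC 1.43 and 1.22). DCN, decorin, a proteoglycan of resting fibroblasts, was at 1.61 to 121 CPM (median 18.4) in group 1 and 37.1 to 79.5 CPM (median 59.2) in NAMs. Again tumors 3 and 7 were above every NAM, and tumors 1, 2, 5 and 6 below (log2 FC -0.31, SE 0.56, adjusted p 0.698). Without tumors 3, 5 and 7 DCN was called lower (log2 FC -1.28). Among the members called lower with all samples was SFRP4, a relative of SFRP2 (log2 FC -2.87).

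Of 11 markers of pericytes and smooth muscle, 3 were higher, or 1 without tumor 5, and 1 lower (median 0.21), and their summed level was 339.9 CPM (tumor 7) to 4048 CPM (tumor 1) in group 1 and 399 to 1670 CPM in NAMs. RGS5, a pericyte regulator of G protein signals and the marker with the highest CPM, was at 19.8 to 3782 CPM (median 1390.5) in group 1 and 143 to 1400.0 CPM (median 534) in NAMs. Tumor 7 lay below every NAM and the gene was not called (log2 FC 1.31, SE 0.59, adjusted p 0.0931), but without tumor 7 it was, at a log2 FC of 1.53. DES, desmin of muscle cells, was the member called lower, with all 7 tumors below every NAM (log2 FC -3.16). ABCC9, a subunit of potassium channels of vessel walls, had the largest increase (log2 FC 2.21), but tumor 5 held 203 CPM, and without it the gene was not called (0.43).

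Of 23 endothelial markers, 3 were higher and 6 lower (median -0.56), but 6 were higher without tumor 6 and 10 lower without tumor 5. PECAM1, a junction protein of all endothelium, was at 36.1 to 331 CPM (median 145) in group 1 and 93.4 to 259.7 CPM (median 149.6) in NAMs. The groups overlapped, with tumor 5 above every NAM and tumors 6 and 7 below (log2 FC 0.02, SE 0.34, adjusted p 0.968; -0.27 without tumor 5). KDR, the main receptor of VEGFA, was at 14.8 to 230.5 CPM (median 72.4) in group 1 and 50.5 to 304 CPM (median 127) in NAMs. It was highest in tumor 5 (log2 FC -0.80, SE 0.41, adjusted p 0.134), and without that tumor it was called lower, at a log2 FC of -1.29, and without tumors 3, 5 and 7 at -1.19. ESM1, endocan, a product of sprouting endothelium, was at 7.36 to 107 CPM (median 56.0) in group 1 and 0.342 to 6.04 CPM (median 1.12) in NAMs. It rose above every NAM in all 7 tumors (log2 FC 4.82, SE 0.65, adjusted p 3.19e-05), as did ANGPT2, a destabilizer of vessels, in 6 (log2 FC 2.14, and 1.55 without tumor 2). Of members known from lymphatic vessels, CCBE1 (-7.35, and -9.53 without tumor 3), MMRN1 (-5.08, and -5.78 without tumor 3), LYVE1 and the growth factor receptor FLT4 (-1.15) were lower. PROX1, a factor of lymphatic endothelium, was not called (1.38, and 0.76 without tumor 1), other than without tumor 3, 4, 5 or 6 or NAM 4, where it was higher (at least 1.49).

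Sustentacular cells are the glia of the medulla. Of 11 Schwann and sustentacular cell markers tested, 0 were higher and 1, SCN7A, was lower (log2 FC -1.89, and -2.93 without tumor 4), with a median of -0.44. The lower count was 5 and the median -1.14 without tumor 4, and without tumors 3, 5 and 7 the counts were 0 lower and 1 higher and the median 0.28. NGFR was called higher without tumor 3, 4, 5 or 6 or NAM 10 (log2 FC 1.89 to 1.94). SOX10, the factor that defines these cells, was at 0.209 to 21.0 CPM (median 1.18) in group 1 and 3.61 to 14.6 CPM (median 5.87) in NAMs. Tumor 4 exceeded every NAM, tumor 6 lay among them, and the other 5 lay below them all (log2 FC -0.44, SE 0.74, adjusted p 0.681; -1.51 without tumor 4). S100B, the usual stain for these cells, was at 0 to 0.355 CPM (median 0.0942) in group 1 and 0.0380 to 0.544 CPM (median 0.208) in NAMs, too low to be tested.

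Immune cells were counted by markers of lymphocytes, macrophages and the pathways they respond through. Of 9 T and NK cell markers tested, 2 were higher and 1 lower (median 0.78), but 4 were higher without tumor 4, and 1 without tumor 1 or 5 or NAM 1, 3, 4, 5, 6, 8 or 9. Their summed level was 12.4 to 45.0 CPM (median 34.4) in group 1 and 16.6 to 72.6 CPM (median 46.7) in NAMs. CD5, a surface protein of T cells and the marker with the highest CPM, was the one called lower, from 4.41 to 58.0 CPM (median 29.7) in NAMs to 0.395 to 13.3 CPM (median 0.518) in group 1. All tumors but tumor 3 lay below every NAM (log2 FC -3.40, SE 0.79, adjusted p 0.00295; -4.81 without tumor 3). The mean of CD5 was 2.77 CPM in group 1 and 29.17 CPM in NAMs. This gene therefore weights the summed level, which does not stand for the other markers. CD3E, a chain of the T cell receptor complex, was at 0.572 to 5.25 CPM (median 1.41) in group 1 and 0.414 to 1.88 CPM (median 1.05) in NAMs. Tumor 3 was highest, and 4 tumors overlapped the NAMs (log2 FC 1.07, SE 0.40, adjusted p 0.0437; rank p 0.0598), with a call in 6 of the 17 fits that left out 1 sample each (log2 FC 0.68 to 1.24) and none without tumors 3, 5 and 7. Leaving out tumor 1, 3 or 5 or any NAM but 2 and 10 lost the call. Of 4 B cell and plasma cell markers tested, 0 were called, with a median of 0.25, while 1 was higher without tumor 6 and 1 lower without tumor 7. CD79A had the highest CPM of them in both groups. MS4A1, which encodes the B cell antigen CD20, was at 0 to 0.292 CPM (median 0) in group 1 and 0 to 0.121 CPM (median 0) in NAMs, with all NAMs at or under the floor and tumor 6 highest.

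Of 13 markers of macrophages and neutrophils, 1 was higher, S100A8, a protein of myeloid cells (log2 FC 2.31), and 2 were lower (median -0.48), while 7 were lower without tumors 3, 5 and 7 (median -1.06). CSF1R, the receptor that sustains macrophages, was at 26.9 to 75.6 CPM (median 50.1) in group 1 and 51.3 to 144 CPM (median 101) in NAMs. Tumors 1, 4, 6 and 7 lay below every NAM (log2 FC -0.96, SE 0.24, adjusted p 0.00434). Of 8 genes of antigen presentation, 0 were higher and 3 lower, all of them of class II (median -0.49). CD74, the invariant chain of class II molecules, was at 192 to 534 CPM (median 239) in group 1 and 321 to 992 CPM (median 541) in NAMs. It fell in 5 tumors to below every NAM, and tumors 3 and 5 lay among them (log2 FC -0.91, SE 0.23, adjusted p 0.00563). NLRC5, which switches on class I genes, was at 4.28 to 37.0 CPM (median 20.2) in group 1 and 14.9 to 36.2 CPM (median 20.5) in NAMs. Tumor 5 exceeded every NAM and tumors 4, 6 and 7 lay below (log2 FC -0.26, SE 0.34, adjusted p 0.573). Of 14 interferon-stimulated genes, 0 were higher and 3 lower (median -0.36), namely ISG15 (-1.40), IFI44 (-0.96) and IFIT3 (-0.81), and 1 was higher without tumor 2 or NAM 10. IFIT3 kept its call only in the fits without tumor 2, NAM 3 or NAM 4, of the 17 that left out 1 sample each (log2 FC -0.98 to -0.67).

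Immediate early genes answer within minutes to stimulation, and also to the handling of tissue. Of 17 tested, 2 were higher and 4 lower, with a median of -0.01, or -0.51 without tumor 2 and 0.15 without tumor 6. The higher count was 1 without tumor 2 or any NAM but 2 and 7. FOS, a subunit of the AP-1 factor, was at 1.85 to 558 CPM (median 45.0) in group 1 and 4.87 to 64.9 CPM (median 12.5) in NAMs. Tumors 2, 3 and 5 held 217 to 558 CPM, above every NAM, while tumors 6 and 7 lay below them all (log2 FC 3.22, SE 0.92, adjusted p 0.0111; rank p 0.624). EGR1, a zinc finger factor, was at 6.06 to 715 CPM (median 212) in group 1 and 22.4 to 831 CPM (median 179) in NAMs. Tumors 6 and 7 were again the lowest, and the groups overlapped (log2 FC 0.02, SE 0.78, adjusted p 0.983; -0.51 without tumor 2). The orphan nuclear receptors NR4A1, NR4A2 and NR4A3 were lower (log2 FC -3.52, -2.78 and -3.97), with -3.68 without tumor 1 for NR4A2 and -4.69 without tumor 5 for NR4A3. The call of NR4A2 was lost without tumor 4 or NAM 6 or 8, where its log2 FC was -2.65 to -2.32. Lower too was FOSL2, a relative of FOS, in all 7 tumors (log2 FC -3.90). By the paper's methods, tumors came from several institutions and were snap-frozen or first put in RNAlater, a stabilizing solution, whereas the NAMs were snap-frozen. The labels give no time from removal to freezing. The part that handling had in these genes was not tested.

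Hypoxia-inducible factors are degraded when oxygen is present and otherwise switch on genes of vessel growth and glycolysis. Of 19 factors and targets tested, 4 were higher and 3 lower (median -0.05), shares near those of all genes. VEGFA, the main signal for vessel growth, was at 37.5 to 652 CPM (median 346) in group 1 and 107 to 623 CPM (median 215) in NAMs. Tumor 7 lay below every NAM and tumor 6 above (log2 FC 0.58, SE 0.42, adjusted p 0.302). EGLN3, an oxygen-sensing hydroxylase and itself a target, was at 0.132 to 4.85 CPM (median 0.812) in group 1 and 1.04 to 3.54 CPM (median 1.93) in NAMs. Tumor 7 was highest and tumors 1 to 4 lay below every NAM (log2 FC -0.36, SE 0.51, adjusted p 0.613; -1.05 without tumor 7), and without tumors 3, 5 and 7 it was called lower (log2 FC -1.46). EPAS1, which encodes HIF-2 alpha, was higher (log2 FC 1.01), but not without tumor 2 or 5 or NAM 6 or 8 (0.65 without tumor 5). HIF1A was lower in all 7 tumors (log2 FC -0.83).

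In energy metabolism, the TCA cycle feeds electrons to the respiratory chain, and succinate dehydrogenase belongs to both. Of 14 TCA cycle enzymes tested, 6 (42.9%) were lower and 1 (7.14%) higher, against 14.7 and 21.1% of all genes (median -0.40). The higher gene, IDH2 (log2 FC 0.63), lost its call without tumor 2, 3 or 7 or any NAM but 8 and 9 (0.39 to 0.64). SDHB, the iron-sulfur subunit of succinate dehydrogenase, was at 8.52 to 57.8 CPM (median 21.6) in group 1 and 24.6 to 61.5 CPM (median 40.7) in NAMs. Tumors 1, 2, 3 and 7 lay below every NAM (log2 FC -0.56, SE 0.33, adjusted p 0.193). FH, fumarase, was at 34.7 to 104 CPM (median 68.3) in group 1 and 69.8 to 137 CPM (median 107) in NAMs. Tumors 1, 2, 3 and 7 again lay below every NAM (log2 FC -0.68, SE 0.20, adjusted p 0.0144), but without tumors 3, 5 and 7 it was not called (log2 FC -0.63). SDHA, the flavoprotein subunit of succinate dehydrogenase, fell in all 7 tumors to below every NAM (-0.98). Of 23 nuclear-encoded genes of the respiratory chain, 5 were lower and 1 higher (median -0.37). The lower count was 2 without tumor 1 or 7 or NAM 1, 2, 6, 7, 8 or 9, 3 without tumor 5, and 9 without tumor 3 or 4 or NAM 4. The higher gene, ATP5MC1 (log2 FC 0.54), kept its call without tumor 2, 5 or 7 or NAM 9 and lost it in the other 13 fits that left out 1 sample each (0.41 to 0.55). Of 13 mitochondrially encoded genes 4 were lower and 0 higher (median -0.48), while 7 were lower without tumors 3, 5 and 7 (median -0.79). ND1, a mitochondrially encoded subunit of complex I, was at 1462 to 6431 CPM (median 1867) in group 1 and 2478 to 8115 CPM (median 4903) in NAMs. Tumor 3 stood above the other tumors (log2 FC -1.03, SE 0.34, adjusted p 0.0257). Of 17 genes of glycolysis, 4 were higher and 1 lower, or 2 without tumor 1, 3 or 6 (median 0.05), with PFKP, a phosphofructokinase, above every NAM in 6 tumors (1.73) and LDHB, a subunit of lactate dehydrogenase, the member called lower (-1.55).

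Among 17 genes known for inherited or somatic variants in human PPGL, 5 (29.4%) were higher and 4 (23.5%) lower, against 21.1 and 14.7% of all genes (median 0.07). However, 3 were higher without NAM 6 or 8, and the median was -0.08 without tumor 7. NF1, a brake on RAS, was at 103 to 183 CPM (median 126) in group 1 and 83.8 to 137 CPM (median 106) in NAMs. Only tumor 7 exceeded every NAM (log2 FC 0.25, SE 0.14, adjusted p 0.163). MAX, the partner of MYC, was at 23.8 to 123 CPM (median 83.3) in group 1 and 30.9 to 49.1 CPM (median 40.2) in NAMs. Tumors 2, 3, 4, 5 and 7 exceeded every NAM and tumor 1 lay below (log2 FC 0.91, SE 0.25, adjusted p 0.00893; rank p 0.19), and without tumors 3, 5 and 7 it was not called (log2 FC 0.42). MYC itself was higher (log2 FC 1.63), but only in tumors 2 and 7, at 307 and 412 CPM, did it exceed every NAM. The call of MYC held in 7 of the 17 fits that left out 1 sample each, and was lost without tumor 2 or 7 (0.87 without tumor 7) or any NAM but 2 and 7. Expression says nothing of the sequence of these genes, which was not examined.

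Receptor tyrosine kinases pass growth signals into the cell. RET is the receptor of glial cell line-derived neurotrophic factors, which it binds through GFRA co-receptors. Of 4 genes of RET, its co-receptors and ligands tested, 1 was higher and 1 lower (median 1.42, or 0.25 without tumor 1 and -0.66 with a block for the replicate number, where 0 were higher). That block fit also left out NAM 8, 9 and 10. GFRA3, the co-receptor of artemin, held 518 CPM in tumor 1 and 4.32 to 86.4 CPM in NAMs, and was not called (log2 FC 1.35, and -1.13 without tumor 1). GDNF and PSPN were at or under the floor in both groups. RET (chromosome 28, 3947232 to 3994210) was at 1.43 to 601 CPM (median 70.3) in group 1 and 2.03 to 27.6 CPM (median 8.93) in NAMs. Tumors 2, 3, 4, 6 and 7 exceeded every NAM, tumor 1 lay among them and tumor 5 below (log2 FC 4.00, SE 0.85, adjusted p 0.00145; 3.18 without tumor 4; rank p 0.222). GFRA1, the co-receptor of GDNF, was lower (log2 FC -2.49, and -3.13 without tumor 1). GFRAL, the co-receptor of GDF15, was not tested and was at or under the floor in all NAMs, but held 15.9 CPM in tumor 1 and 49.2 in tumor 6. Of 7 genes of pleiotrophin, midkine and their receptors tested, 2 were higher and 2 lower (median -0.76), but 1 was higher without tumor 7, and 1 lower without tumor 3, 4 or 6 or NAM 7 and 0 without tumor 5 or NAM 1 or 6. PTN, pleiotrophin, a growth factor that binds heparan sulfate (chromosome 16, 11283077 to 11382814), was at 8.48 to 314 CPM (median 75.9) in group 1 and 0.457 to 5.29 CPM (median 1.86) in NAMs. It rose above every NAM in all 7 tumors, most in tumor 2 (log2 FC 5.57, SE 0.63, adjusted p 4.65e-06; 4.89 without tumor 2). ALK, a receptor kinase of sympathetic neuroblasts, was called higher (log2 FC 4.73), but tumor 7 held 484 CPM and the next highest, tumor 2, 22.9, and without tumor 7 it was not called (log2 FC 1.63).

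Of 19 other receptor tyrosine kinases tested, 8 (42.1%) were lower and 2 higher (median -0.99), the latter including KIT. KIT, the receptor of stem cell factor, was at 3.16 to 278 CPM (median 44.1) in group 1 and 5.84 to 36.2 CPM (median 25.5) in NAMs. Tumor 1 held 278 CPM (log2 FC 1.57, SE 0.59, adjusted p 0.0445; rank p 0.222), and the call held in 6 of the 17 fits that left out 1 sample each, with a log2 FC of 0.52 without tumor 1. The other samples whose omission lost it were tumor 4 and all NAMs but NAM 5. FGFR1, a fibroblast growth factor receptor, was at 30.6 to 362 CPM (median 148) in group 1 and 181 to 290.3 CPM (median 214) in NAMs. Tumors 1 and 6 exceeded every NAM and 4 tumors lay below (log2 FC -0.28, SE 0.34, adjusted p 0.547). FGFR2, its relative, was at 0.132 to 8.48 CPM (median 0.430) in group 1 and 78.5 to 470.5 CPM (median 258) in NAMs. It fell below every NAM in all 7 tumors, by 123-fold between the means (log2 FC -6.94, SE 0.86, adjusted p 1.26e-05; -8.15 without tumor 2). ERBB4, a neuregulin receptor, was at 0 to 7.83 CPM (median 0.0673) in group 1 and 4.01 to 24.7 CPM (median 12.3) in NAMs. All tumors but tumor 6 lay below every NAM (log2 FC -3.54, SE 1.05, adjusted p 0.0137), and without tumor 6 the log2 FC was -6.85.

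Catecholamines also act back on chromaffin cells through their own receptors. Of 8 dopamine and adrenergic receptor genes tested, 3 were higher and 3 lower, and the median of -0.13 became -1.21 without tumor 4 and positive without tumor 3 or 7 or NAM 1, 4, 7, 8 or 9 (0.28 without NAM 7). DRD2, the dopamine D2 receptor, which inhibits secretion (chromosome 5, 19732836 to 19795241), was at 0.471 to 512 CPM (median 244) in group 1 and 1.32 to 10.6 CPM (median 4.56) in NAMs. It rose in tumors 1 to 6 to above every NAM, at 145 CPM or more, while tumor 7 was below them all (log2 FC 5.51, SE 0.72, adjusted p 2.1e-05). ADRA1A, the alpha-1A adrenoceptor, was at 0.101 to 40.2 CPM (median 2.39) in group 1 and 0 to 0.272 CPM (median 0.0455) in NAMs. It failed the filter on low counts, and 6 tumors lay above every NAM. Somatostatin receptors are targets for imaging and therapy of neuroendocrine tumors. Of 3 found, 2 were tested and 0 called by edgeR (median -0.63, or -2.07 without tumor 3 and -1.38 without tumor 4), with 1 lower at an unadjusted p below 0.05, 2 called lower by DESeq2 and 1 by the Mann-Whitney U-test, and 1 lower by edgeR without tumor 3 or 4. SSTR2, the main target, was at 0 to 16.95 CPM (median 0.175) in group 1 and 0.815 to 3.81 CPM (median 1.72) in NAMs. Tumor 3 exceeded every NAM and 5 tumors lay below (log2 FC 0.30, SE 0.95, adjusted p 0.837), and without tumor 3 it was called lower, at a log2 FC of -2.77, as it was without tumors 3, 5 and 7 (-5.02).

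Acetylcholine from splanchnic nerves triggers release in the normal medulla through nicotinic receptors. Of 8 acetylcholine receptor genes tested, 4 (50%) were higher and 1 lower, or 2 without tumor 5 (median 0.66). CHRNA3, the alpha-3 subunit of the ganglionic receptor, was at 20.9 to 88.8 CPM (median 59.1) in group 1 and 11.8 to 44.2 CPM (median 21.4) in NAMs. Tumors 1, 4, 5 and 6 exceeded every NAM and the other 3 lay among them (log2 FC 1.04, SE 0.32, adjusted p 0.0163; rank p 0.0746). Its partner subunits CHRNA5 (3.31), CHRNB2 (1.32) and CHRNB4 (0.98) were also higher, CHRNA5 in all 7 tumors, and CHRNB4 lost its call without tumor 4 or 6 (0.80 without tumor 4). CHRNA4 was lower (log2 FC -6.83, and -7.65 without tumor 6).

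Wnt ligands bind Frizzled receptors and stabilize beta-catenin, whose targets include feedback inhibitors. Of 30 Wnt genes tested, 4 were higher, or 2 without NAM 4 or 5, and 9 (30%) lower. The median was 0.14, or -0.43 without tumors 3, 5 and 7, and below 0 without tumor 3 (-0.19) or 5 (-0.13) or NAM 4 (-0.03) or 5 (-0.06). WNT3, a ligand of this pathway, was at 1.11 to 28.2 CPM (median 10.2) in group 1 and 0 to 0.880 CPM (median 0.368) in NAMs. It rose above every NAM in all 7 tumors (log2 FC 5.12, SE 0.73, adjusted p 5.25e-05), and tumors 2, 4 and 6 were the lowest. NKD1, a feedback inhibitor, was at 1.70 to 138 CPM (median 15.5) in group 1 and 0.355 to 1.47 CPM (median 0.874) in NAMs. Here tumor 4 was the highest by far (log2 FC 5.18, SE 0.72, adjusted p 4.29e-05; 4.06 without tumor 4). AXIN2, the most general target of beta-catenin, was at 8.48 to 18.4 CPM (median 10.7) in group 1 and 5.86 to 30.6 CPM (median 15.4) in NAMs. All tumors lay within the range of NAMs (log2 FC -0.39, SE 0.30, adjusted p 0.325). LEF1, a transcription factor of the pathway, and FRZB, a secreted inhibitor, were lower in all 7 tumors (-2.97 and -3.54). Of 8 Notch genes tested, 2 were higher and 2 lower (median 0.34, or -0.09 without tumor 5 and -0.25 without tumors 3, 5 and 7). NRARP and HEY1, targets of the pathway, were higher (log2 FC 1.56 and 0.94) and the receptors NOTCH2 and NOTCH4 lower (-2.24 and -1.49). DLK1, a Notch-related ligand of adrenal progenitors, was not tested, at 0 to 1.69 CPM (median 0.234) in group 1 and 0 to 0.181 CPM (median 0.0400) in NAMs. It was highest in tumors 4 and 7.

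Markers of blood and of neighboring tissues were checked last. Of 10 erythroid genes, 0 passed the filter. HBM, a hemoglobin chain and the one with the highest CPM, was at 0 to 27.4 CPM (median 0.532) in group 1 and at or under the floor in all NAMs, so that its mean was at least 35.9-fold higher in group 1. Tumor 3 held 27.4 CPM and no other tumor over 1, so that the bound rests on tumor 3. Of 2 kidney markers tested, 1 was higher and 0 lower (median 0.49), while UMOD and SLC34A1 were at or under the floor in both groups. Of 4 adipocyte markers tested, 0 were higher and 1, LPL, a lipase of fat and other tissues, was lower (log2 FC -1.25), with a median of -0.36, and the summed level was 10.5 to 44.4 CPM in group 1 and 34.0 to 75.9 CPM in NAMs. Without tumors 3, 5 and 7, 1 adipocyte marker was higher and 1 lower, with a median of 0.19.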

How the data were processed

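Messenger RNA of 7 PPGL group 1 tumors and 10 NAMs was examined, out of the 29 columns of a table of raw read counts per gene that the authors deposited. The authors extracted RNA, left out samples of low integrity, made stranded libraries and aligned reads of 50 bp to CanFam3.1 with STAR 2.4.2a. The deposited values are counts over exons, and the table has the layout of featureCounts, while the notes name HTSeq. The strand setting and the handling of reads that map to several places are not given, so counts of close paralogs are uncertain. Of 30951 genes, 18239 have a name in the table and 4 more were named from the text of the study.

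The groups were taken from the column names. Genes were filtered with filterByExpr of edgeR 4.0.16 (minimum count 10, minimum total 15), libraries were scaled by TMM, and the groups were compared by the quasi-likelihood F test with Benjamini-Hochberg adjustment, in R 4.3.3 with limma 3.58.1. Log2 FC used a prior count of 0.125, and the SE is the log2 FC over the square root of F. Sequencing depth was compared by an exact permutation test over all 19448 splits, and figures were drawn with matplotlib 3.10.9 in Python 3.11.15. The code was tested on simulated data.

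Genes were named by a rule. It took, per direction, the 12 genes with a symbol and the largest log2 FC among those with an adjusted p below 0.05, groups that do not overlap and a median of at least 5 CPM in the higher group. It also took the members of 45 gene lists (750 genes), with 78 key members given in full and the others by counts, ranges or own values. Some list members were picked out for mention after their values were seen. Of the genes this rule names, 1 higher gene and 4 key members are not reported here. The members and the lists were chosen with earlier results of these data known.

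The alternatives were size factors of DESeq2 1.42.0, total counts as the only scaling, no low-count filter, a filter of at least 1 CPM in 7 samples, a prior count of 2, the Mann-Whitney U-test that the study used, the Wald test of DESeq2, a block for the replicate number, the cortical score as a covariate, a fit with all 3 groups, and the omission of each sample in turn. The block fit held only the samples numbered 1 to 7 in both groups, so NAM 8, 9 and 10 were left out of it. A fit without tumors 3, 5 and 7 was added after the data were seen. PPGL group 2 was left out because the comparison concerns group 1.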

Additional observations from a re-analysis of the deposited data

Results flagged for a closer look

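In each group of samples, the highest and the lowest sample of the genes given in full were compared with the rest, as the gap to the nearest sample divided by the whole range of the group on the log2 scale (Dixon's ratio). Of 176 such tests, 17 passed the 95% critical value, and chance alone flags about 1 in 20 groups. Tumor 7 accounted for 5 of them, being the lowest tumor for DRD2 (ratio 0.815), RGS5 (0.747), CHGB (0.681) and SLC18A1 (0.610) and the highest for OXT (0.920). Tumor 6 was the highest for MS4A1 (0.637), MC2R (0.633), HAO2 (0.604) and ERBB4 (0.572), with MC2R at 0.526 CPM and ERBB4 at 7.83 CPM. Medians of group 1 were 0 CPM for OXT, MC2R and MS4A1 and under the floor for HAO2 and ERBB4. The ratios of these genes therefore depend on the prior count of log2 CPM and do not measure the size of the departure. Tumor 3 was the highest for ND1 (0.619) and HBM (0.589), and tumor 5 the lowest for ELAVL4 (0.671), at 1.31 CPM where the median of group 1 was 73.2.

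Among the NAMs, NAM 3 was the lowest for ZFP92 (0.473) and KDR (0.468) and the highest for FKBP5 (0.497). NAM 4 was the lowest for OXT (0.550) and NAM 8 for APBA2 (0.572), where it held 0 counts, so that the ratio of APBA2 also depends on the prior count. In tumor 7 DRD2 was at 0.471 CPM against a median of 243.6 in group 1, and CHGB at 27.2 against 13142 CPM. The cause of these departures was not tested.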

How the results depend on the processing

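Across 83 results on single genes, 2161 of 2313 values under the alternatives kept their direction and their side of the threshold, 115 lost their call, 11 gained one and 26 reversed. The total of called genes was 4567 to 5561 when each sample was left out in turn. With total counts only, the median log2 FC of all genes was 0.23 in place of 0.13, and 66.6% of the calls were higher in place of 58.9%. List medians changed sign, counted where the median was over 0.1 in size both before and after, in 0 lists with DESeq2 size factors or total counts only, in 20 with the cortical score as covariate, 5 with the replicate block, 6 without tumors 3, 5 and 7, 2 with at least 1 CPM in 7 samples, and 1 each without tumor 2, 3, 5 or 7 or NAM 1, 4 or 7. The Mann-Whitney U-test called 1932 genes higher, 151 of them over log2 FC 3, and 2234 lower, so 46.4% of its calls were higher. Of the genes given in full it lost 13 calls, each with its rank p in the report, and gained PNMT. Without the low-count filter 904 genes passed log2 FC 3 and 639 passed -3, and the DESeq2 Wald test gave 532 and 596, both with more genes tested. The block for the replicate number, although samples of the same number did not pair (correlations -0.0982 to 0.0487), called 833 higher, with 92 over log2 FC 3, 1315 lower, and 175 list members. It ended the calls of GATA3, ISL1, STMN2, GAP43, ELAVL4, DPP6, RRM2, COL1A1, SFRP2, CD3E, CD74, FOS, FH, ND1, RET, KIT, CHRNA3 and MAX. The block fit also lacked NAM 8, 9 and 10, so these losses cannot be put down to the block alone. With all 3 groups in the fit GATA3, ISL1, STMN2, CD3E, CD74 and KIT lost theirs, without the low-count filter GATA3, CD3E and KIT, with total counts only OXT, and with the DESeq2 Wald test CYP11B2, while PNMT gained one. With the cortical score as covariate, whose variance inflation was 16.6, 76 were higher (58 over log2 FC 3) and 50 lower (45 under -3), with 5 list members called. In that fit, among called genes outside the lists of cortical score, steroid enzymes and cortical regulators, the log2 FC reversed for ST8SIA2 (-2.09), APBA2 (-3.04), WNT3 (-4.51), HAO2 (0.19), CARTPT (2.99), HAND2 (-0.42), ISL1 (-3.44), GAP43 (-3.28), DPP6 (-1.18), MKI67 (-4.67), TOP2A (-5.68), MCM2 (-1.91), RRM2 (-6.46), COL1A1 (-3.50), COL4A1 (-0.18), FAP (-2.09), SFRP2 (-6.68), CD3E (-0.81), FOS (-3.09), FH (0.72), KIT (-3.88), ERBB4 (4.21) and MAX (-0.95). Genes of those lists and genes not called changed sign there too, among them CYP11A1 (4.26), CYP17A1 (5.50), PNMT (5.35) and SOX10 (6.64), and are not counted as reversed. None of the genes named here as reversed or changed in sign was called in that fit. The score did not overlap between the groups, with at most 3.59 in group 1 and at least 8.985 in NAMs. No direction is therefore read from that fit. SSTR2 reversed from 0.30 to -2.22 with the DESeq2 Wald test and to -5.02 without tumors 3, 5 and 7, and spanned -2.77 (without tumor 3) to 0.52 when each sample was left out. The p for total counts spanned 0.0312 (without tumor 5) to 0.245. The causes were not tested. Depth limits genes of a few counts, and 7 tumors that differ this widely limit any statement on genes high in some of them only.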
